A study of Arabidopsis thaliana with 4 samples.

Results

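RVE8 (REVEILLE 8) encodes a MYB-like transcription factor of the family that also holds the clock proteins CCA1 and LHY. It was looked for on these arrays by its locus AT3G09600 together with CCA1 (AT2G46830), LHY (AT1G01060), TOC1 (AT5G61380), PRR5 (AT5G24470), PRR7 (AT5G02810), PRR9 (AT2G46790), ELF4 (AT2G40080) and LUX (AT3G46640), 9 genes of the circadian clock in all. Each locus was matched to a probe set, the group of short probes that reports one transcript, through the annotation of the array or, where that names none, through the supplementary gene list of the study. By this rule 1 of the 9 genes, RVE8, was matched to a probe set among the 22746 that were tested. It was named through the gene list alone. The other 8 were matched to none and are not analysed here. With 8729 tested probe sets left unnamed, they may still have probe sets on the array. The dawn and evening transcripts of the core oscillator could thus not be set against each other. That gene list was made from these same arrays as the genes that differed between the treatments. The difference of RVE8 is therefore given as a description and is not independent evidence of its direction.

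The arrays were made from whole Col-0 seedlings of KUA1-IOX, a stable transgenic line in the T3 generation, 14 days old and grown with 16 h of light and 8 h of darkness. In this line the chimeric activator XVE is expressed constitutively and, once estradiol lets it enter the nucleus, switches on KUA1 from a LexA promoter. Both groups carry the construct: estradiol-treated seedlings received 15 µM estradiol in liquid medium for 4 h, and mock-treated seedlings the ethanol solvent for the same time, with 2 biological replicates and 2 arrays in each group. Estradiol-treated seedlings without the construct are not among the 4 arrays, so the effects of estradiol and of KUA1 cannot be told apart, and no source used here gives the hour of harvest.

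The clock of Arabidopsis is a loop of transcription factors that switch each other off in turn over the day. CCA1 and LHY accumulate around dawn and repress genes that carry the evening element in their promoters, the PRR proteins follow one another from morning to dusk, and LUX, ELF4 and ELF3 form the evening complex. RVE8 binds the same evening element but activates the genes that carry it, among them the evening genes TOC1, PRR5 and GI, and its transcript peaks around dawn. KUA1, a MYB-like transcription factor too, peaks in the morning in plants with an intact clock.

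KUA1 itself had signals of 1887 and 3373 on the estradiol arrays and of 203 and 170 on the mock arrays, so that the lower estradiol array lay far above both mock arrays. Signals are MAS5 values on a linear scale, scaled to a common mean on each array, and their medians lay between 36.2 and 38.9 on the 4 arrays. Below, dim means that the mean log2 signal of a group did not reach the 40th percentile, which lay at a signal of 21.7 to 23.5 on the single arrays. Rubisco activase (RCA), a marker of photosynthetic tissue, had signals of 2298 to 2693 over the 4 arrays, and the root marker PYK10 had 1861 to 2446, so both shoot and root transcripts were present, although only 1 of 6 shoot and 2 of 9 root markers were matched to a probe set. PYK10 had signals of 1861 and 1906 in estradiol-treated and 1994 and 2446 in mock-treated seedlings, and EXPA7, the other root marker, had 27.7 and 22.9 against 35.1 and 55.2. Both thus lay lower on the 2 estradiol arrays than on the 2 mock arrays, as did 18% of all probe sets. What part the lower root signals have in the values below was not tested. In such whole seedlings, fewer cells that express a gene and less of its RNA per cell cannot be told apart.

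The signals of RVE8 on both estradiol arrays lay above those on both mock arrays, and all 4 were dim. Its probe set had signals of 11.6 and 11.8 in estradiol-treated seedlings and of 5.51 and 5.34 in mock-treated seedlings. The groups did not overlap, as in 16.1% of all probe sets and 14.8% of those dim in both groups with the estradiol arrays above, and the estradiol signals were at 52.7% and 53.9% of the 40th percentile of their arrays, the mock signals at 25.4% and 22.7%. The means were 11.7 ± 0.12 (SD, n = 2 arrays) after estradiol and 5.43 ± 0.12 (SD, n = 2) in mock, or 2.16-fold. The log2 fold change in limma was 1.11, standard error 0.38. With limma RVE8 was not called (adjusted p = 0.675 over all probe sets, unadjusted p = 0.0266), and neither was any other probe set at an adjusted p under 0.05, 0 of 22746 or 0%. At an unadjusted limma p under 0.05 there were 1481 or 6.51%. The 95% interval of the log2 fold change in this fit reached from 0.18 to 2.04. An exact permutation test of 2 arrays against 2 cannot give a two-sided p below 0.333.

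**Figure D1:**
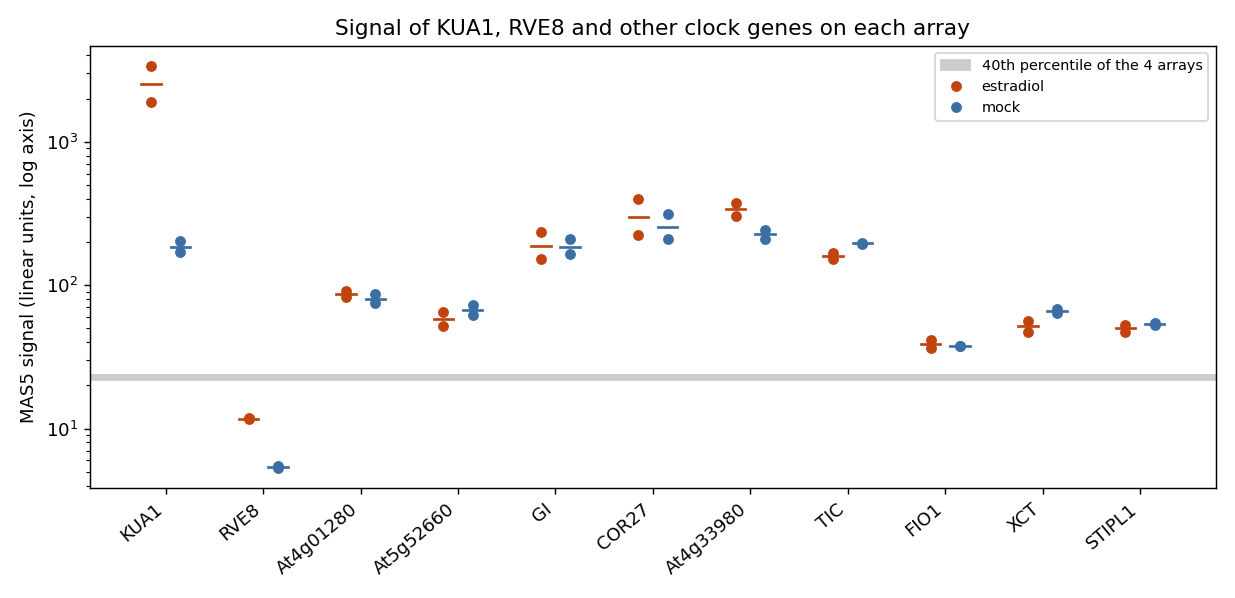
MAS5 signal (log axis) of KUA1, RVE8 and 9 other genes linked to the clock on each of the 4 arrays, estradiol left and mock right for each gene, with short lines at the geometric means of 2 arrays and a grey band at the 40th percentile of the arrays. RVE8 is the one gene shown that lies under the band on all 4 arrays, with 11.6 and 11.8 after estradiol and 5.51 and 5.34 in mock.

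The replicates of RVE8 lay close together for a dim probe set. Replicate 2 minus replicate 1 was 0.021 on the log2 scale after estradiol and -0.046 in mock. Of the 8686 probe sets that were dim in both groups, 8 or 0.0921% had replicates that close in both treatments, RVE8 among them, against 0.711% of all other probe sets. The estradiol replicates lay at least 2-fold apart in 25.2% of the dim probe sets and the mock replicates in 27.3%. The study's list was drawn up with a test that weighs a difference against the spread of its replicates, and RVE8 was chosen with it. The size of its fold change was less uncommon at this brightness. A log2 fold change at least as large in either direction was found in 1132 of the dim probe sets, or 13%. At least 2-fold apart were 15.6% of the dim probe sets, against 1.78% of all others.

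RVE8 was 1 of 143 probe sets with higher signals after estradiol, 0.629% of those tested, that passed the thresholds of the study, at least 2-fold with P below 0.05 without adjustment. Of the 143, 84 were dim in both groups, 0.967% of the dim probe sets. In the opposite direction 0.528% of the probe sets passed. The methods' t-test left 0 calls among the members after Benjamini-Hochberg adjustment. With 32 added to each signal before the logarithm, which shrinks differences between dim signals, the log2 fold change of RVE8 was 0.22. With a floor set at the 40th percentile of each array, all 4 of its values lay at the floor and no fold change could be given.

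**Figure D2:**
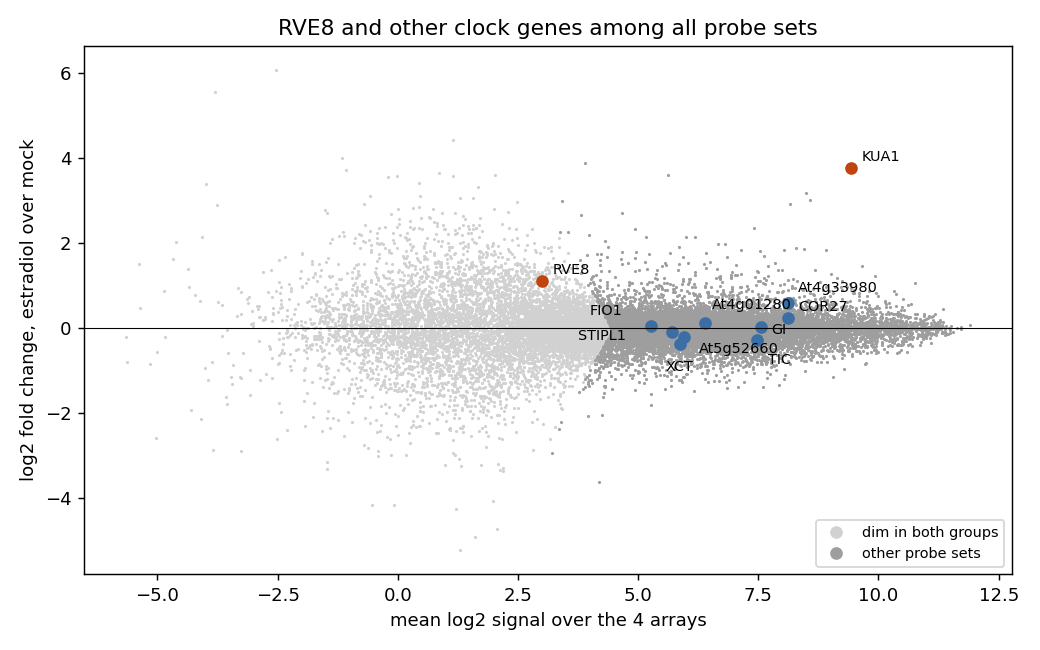
Log2 fold change of estradiol over mock (vertical axis) against the mean log2 signal over the 4 arrays (horizontal axis) for all 22746 probe sets, with KUA1 and RVE8 in orange and 9 other genes linked to the clock in blue. RVE8 at 1.11 lies in the wide left part of the cloud, where signals are dim, whereas the blue genes lie to its right between -0.36 and 0.58.

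Of 39 further clock genes, in lists of RVE relatives, LNK coactivators, evening complex partners, the PRR3, GI and ZTL group, other regulators and outputs, 7 were matched to a probe set, and 32 to none. The 7 were all brighter than the 40th percentile on all 4 arrays. In 1 of them both estradiol arrays lay above both mock arrays and in 1 both lay below, where 16.1% and 18% of all probe sets did so. With limma 0 of the 7 were called (smallest adjusted p = 0.632), 1 had an unadjusted p under 0.05, and 0 passed the study's thresholds. Their log2 fold changes ran from -0.29 to 0.58, with a median of 0.04 beside -0.0080 over all probe sets. The median moved with single arrays. The median was -0.19 with estradiol replicate 2 left out and -0.057 with mock replicate 2 left out, against 0.18 when estradiol replicate 1 and 0.20 when mock replicate 1 was left out. The counts above and below mock with an array left out are not set against the shares of 16.1% and 18%. They set 1 array against 2, where groups lie apart more readily by order alone. No share over all probe sets was computed for that setting.

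GI (GIGANTEA, At1g22770), a large protein that links the clock to flowering and whose transcript peaks late in the day, was the 1 gene measured of 8 that are known as evening genes activated by RVE8. It had signals of 152 and 235 in estradiol-treated seedlings and of 210.1 and 164 in mock-treated seedlings. The groups overlapped fully, with both mock signals between the 2 estradiol signals. Its log2 fold change was 0.025 ± 0.25 (standard error), and the 95% interval of -0.60 to 0.65 in limma leaves room for changes of either sign up to that size (adjusted p = 0.997).

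COR27, a cold-regulated gene that acts in the clock, had signals of 225 and 399 after estradiol and of 312 and 209 in mock. The signals of the groups alternated, with a mock array lowest and an estradiol array highest, and the log2 fold change was 0.23 ± 0.33 (standard error) (limma, adjusted p = 0.985). The direction of both genes turned with the array left out: without estradiol replicate 2 the log2 fold change was -0.29 for GI and -0.19 for COR27, and without mock replicate 2 it was -0.15 and -0.057.

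The locus At4g33980, entered in the list of other regulators and not named in the annotation used here, had signals of 304 and 375 in estradiol-treated seedlings and of 244 and 208 in mock-treated seedlings. It was the gene of the 7 whose estradiol signals both lay above its mock signals. The log2 fold change was 0.58 ± 0.18 (standard error), which did not pass limma's adjusted test (adjusted p = 0.632, unadjusted p = 0.0170). It lay between 0.43 and 0.73 with any one array left out.

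TIC (TIME FOR COFFEE), a nuclear protein of the clock, had signals of 153 and 168 after estradiol and of 197 and 194 in mock. Both estradiol signals lay below both mock signals, and the log2 fold change was -0.29 ± 0.14 (standard error) (limma, adjusted p = 0.853). FIO1 (FIONA1), needed for the normal period of the clock, had 41.3 and 36.6 after estradiol and 37.8 and 37.6 in mock. The mock signals lay between the estradiol signals, and the log2 fold change was 0.044 ± 0.21 (standard error), or -0.043 without estradiol replicate 1.

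The list of RVE relatives held 7 genes, of which the loci At4g01280 and At5g52660, both without a name in the annotation used here, were matched to a probe set. At4g01280 had signals of 83.3 and 91.1 in estradiol-treated and 86.5 and 74.9 in mock-treated seedlings. At5g52660 had 51.5 and 65.4 after estradiol and 73.0 and 61.6 in mock. The groups overlapped in both, and the log2 fold changes were 0.11 and -0.21, with standard errors of 0.17 and 0.21. Neither was dim, unlike RVE8.

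Whether the 4 arrays share a time of day could not be shown, since the planned morning and evening genes were not matched. The 7 genes were not sorted by hour of peak, so only their replicates in each treatment are set against each other here. In 6 of the 7 the signal was higher on estradiol replicate 2 than on estradiol replicate 1 and lower on mock replicate 2 than on mock replicate 1, FIO1 being the exception, where 32.1% of all probe sets showed this order. Over the 7 genes, the median difference, replicate 2 minus replicate 1 on the log2 scale, was 0.31 after estradiol and -0.23 in mock. Over all probe sets it was 0.035 and -0.011. TIC, 1 of the 6, had a difference in mock of only -0.024, or -0.0061 with quantile normalization. Of 2 genes in lists added later, 1 showed the same order. COR27 had the widest differences of the 7, with 0.83 after estradiol and -0.57 in mock. GI followed with 0.63 and -0.36. Differences as wide as those of COR27 were found in 15.1% of all probe sets between the estradiol arrays and in 25.9% between the mock arrays, and for GI in 22.3% and 43.3%.

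KUA1 had the same order, with 0.84 after estradiol and -0.25 in mock. RVE8, at 0.021 and -0.046, had the same signs with differences close to 0. The differences between replicate arrays of GI and COR27 were thus larger than their differences between the treatments. These genes share the arrays, and 2 arrays a treatment give no test of a difference in sampling time, whose part in the values was not tested.

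**Figure D3:**
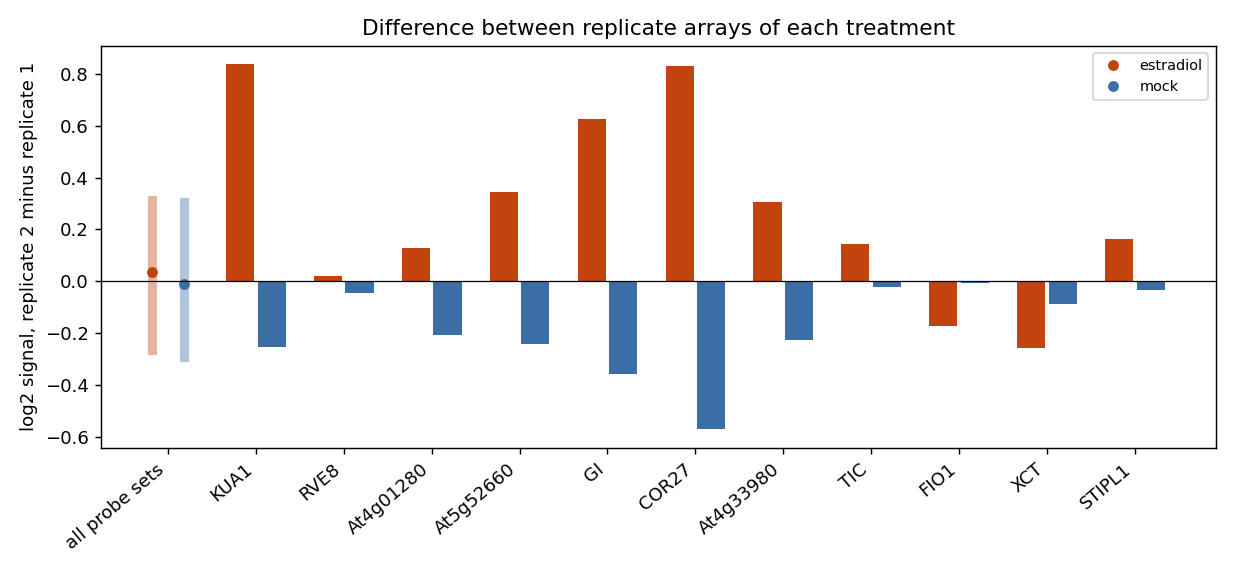
Log2 signal of replicate 2 minus replicate 1 within the estradiol arrays (orange) and within the mock arrays (blue) for KUA1, RVE8 and 9 other genes linked to the clock, with the median (point) and the range between the quartiles of all probe sets (pale bar) at the left. GI and COR27 have bars of 0.63 and 0.83 after estradiol and of -0.36 and -0.57 in mock, whereas those of RVE8 are close to 0.

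The probe sets whose signals followed RVE8 most closely over the 4 arrays were sought among 7158 named ones that were not dim in either group. The 5 with the highest Pearson correlation of log2 signals, all above 0.99 over the 4 arrays, were At2g17500, the phospholipid-transporting ATPase gene ALA1, the glutathione S-transferase gene GSTU4, At5g51030 and CEJ1. In all, 44 of the 7158 reached 0.99, and of the 5 named, all but At5g51030 came from the study's list of genes that differ on these arrays. At2g17500 had signals of 640.1 and 634 after estradiol and of 306 and 298 in mock, and ALA1 had 180.2 and 194 after estradiol and 79.7 and 77.6 in mock. At5g51030 differed far less between the treatments, with 25.2 and 25.1 after estradiol and 23.8 on both mock arrays. With 4 arrays in 2 groups this correlation is a description of 4 points and carries no test.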

How the data were processed

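RNA of 2 estradiol-treated and 2 mock-treated KUA1-IOX samples was hybridized to Affymetrix ATH1 arrays, 1 array per replicate. The values that the authors deposited are intensities on a linear scale, 1 for each probe set, made with MAS5 (its version is not named in the sources). On each array their mean is close to 100 once the 2% at either end are left out. The replicates are described as independent and biological, and their number limits the precision. The label of the mock samples calls their genotype a control, whereas their titles and the methods name KUA1-IOX, which was followed.

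Of 22810 probe sets, 64 controls were left out. The rest were tested on the log2 scale with limma 3.58.1 in R 4.3.3 (lmFit, eBayes with an intensity trend, no block), with Benjamini-Hochberg adjustment over all 22746, and the scripts were tested on simulated data. The study's thresholds were applied as the methods' t-test on log2 signals with a 2-fold difference of geometric means. The array annotation gave 1 locus to 13436 probe sets through RefSeq locus tags, several genes to 503, and did not list 8730. The study's gene list named 78 more. No gene was named in any other way.

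The genes and lists were chosen with earlier results of these data known. Besides the 9 clock genes and KUA1, genes were named from clock lists, up to 4 a list in order of limma p, and 5 by their correlation with RVE8. A second group of lists, on light input, period modifiers and further outputs, was added after the values of the first were seen. The planned difference between morning and evening clock genes per array was not computed, since none of its 6 genes was matched. Alternatives were the methods' t-test, a replicate block, no intensity trend, each array left out, dim probe sets left out, a floor at the 40th percentile, log2(signal + 32), median scaling and quantile normalization.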

Additional observations from a re-analysis of the deposited data

How the results depend on the processing

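The log2 fold change of RVE8 kept its direction and stayed uncalled in limma under each alternative that gave a value, from 0.22 on log2(signal + 32) to 1.14 with median scaling, and from 1.09 to 1.13 with one array left out. With dim probe sets left out RVE8 is not tested, and with the floor it has no value. The count of members called, 0, was 1 at an unadjusted limma p under 0.05 and 1 with the study's thresholds. With the replicate number as a block the log2 fold change of RVE8 was 1.11 (limma, adjusted p = 1.00) and 0 probe sets were called, as without the block, with 1044 at an unadjusted p under 0.05. The labels do not say that the replicate number marks a shared batch, and same-numbered arrays deviated from their group means with a correlation of -0.13 over all probe sets and -0.30 once those dim in both groups were set aside. A crossed pairing, chosen after seeing the data, called 3 probe sets.

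Of the 7 other clock genes, the count with both estradiol arrays above the mock arrays lay between 1 and 4 with one array left out, against 1, and the count below lay between 1 and 3, against 1. Their median log2 fold change lay between -0.19 without estradiol replicate 2 and 0.20 without mock replicate 1. With one array left out the log2 fold change lay between -0.29 and 0.34 for GI, -0.19 and 0.64 for COR27 and -0.043 and 0.13 for FIO1. It was -0.29 for GI and -0.19 for COR27 without estradiol replicate 2, -0.15 and -0.057 without mock replicate 2, and -0.043 for FIO1 without estradiol replicate 1. The difference between the estradiol replicates of RVE8 was -0.052 with quantile normalization, 0.074 with median scaling and 0.0055 on log2(signal + 32), and that between its mock replicates was -0.15 with median scaling and -0.0066 on log2(signal + 32). No test was made of why these values moved. No count or median could be given for the other 8 core clock genes.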

Other observations

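Of 28 genes in the lists that were added later, on light input, clock period modifiers and further clock outputs, 2 were matched to a probe set, both of them period modifiers. XCT (XAP5 CIRCADIAN TIMEKEEPER), which takes part in setting the pace of the clock, had signals of 56.3 and 47.1 in estradiol-treated seedlings and of 68.4 and 64.3 in mock-treated seedlings, so that both estradiol signals lay below both mock signals. Its log2 fold change was -0.36 ± 0.19 (standard error), which did not pass limma's adjusted test (adjusted p = 0.867). STIPL1, a spliceosome component that affects the period of the clock, had 47.3 and 52.9 after estradiol and 54.3 and 53.0 in mock. Its groups lay apart only narrowly, by 52.9 against 53.0. The log2 fold change of STIPL1 was -0.10 ± 0.19 (standard error) (limma, adjusted p = 0.987). The share of all probe sets with both estradiol arrays below both mock arrays was 18%.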
